A study of Homo sapiens with 4 samples.

Results

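The expression of 42 genes that write, read or edit chemical marks on RNA was followed in PC3 cells after depletion of ALKBH3. The genes were chosen by symbol, because ALKBH3 itself removes methyl groups from RNA. They comprise 4 genes for the N6-methyladenosine (m6A) writer complex, 5 for m6A readers, 10 for tRNA methyltransferases, 6 for cytosine-5 RNA methyltransferases, 4 for pseudouridine synthases, 5 for deaminases, 4 for wobble uridine and queuine enzymes and 4 for dihydrouridine synthases. They are 42 of the 19102 genes that the array probes could be named for, and of the 14556 genes tested between the shRNAs. The probes were named through their transcript accessions and the RefSeq gene table, in which TRMT12 is now TYW2 and DUS2L is now DUS2. All 42 genes had a probe, 58 probes in all, and the probe that stood for each of them was well above background on all 4 arrays.

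PC3 is an established prostate cancer cell line. The cells had been infected for 48 h with lentivirus that carried an shRNA against ALKBH3 or, in the control, against GFP, and were then kept in puromycin, which kills uninfected cells, for 48 h or 96 h. A single-colour Agilent array was run once for every shRNA at every time, 4 arrays in all, so that the groups were control shRNA at 48 h and 96 h and ALKBH3 shRNA at 48 h and 96 h. The labels do not name the ALKBH3 shRNA sequence, and nothing says that the 48 h and 96 h RNA of an shRNA came from separate infections. The p-values therefore measure only the spread between these 4 samples. In the main comparison of the shRNAs this is the spread between the 48 h and 96 h arrays of an shRNA. It holds the time and the slide of each time, and part of it may be technical.

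Cells modify their RNA after transcription. In mRNA, a complex with METTL3 and METTL14 places m6A, and proteins with a YTH domain bind it and steer splicing, translation and decay. Transfer RNA carries the densest set of marks, which shape its folding and decoding, and the ADAR and ADAT enzymes turn adenosine into inosine in double-stranded RNA and in tRNA. ALKBH3 is an oxidative demethylase that takes methyl groups from 1-methyladenosine and 3-methylcytosine in single-stranded DNA and in RNA, and its substrates in tRNA include marks that some of the 42 genes place.

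Signals are given as log2 intensity relative to the 75th percentile of the same array, and a difference of 1 on this scale is a 2-fold change. Between 67.0% and 70.9% of the probes were well above background on an array, and over all genes tested the median absolute difference was 0.15 between the shRNAs at 48 h and 0.14 at 96 h. The target gene was lower with its shRNA. The main ALKBH3 probe had signals of -0.74 and -0.89 with control shRNA and of -2.48 and -2.41 with ALKBH3 shRNA at 48 h and 96 h (log2 difference -1.63, standard error 0.12, limma adjusted p = 0.253, and 0.0264 with time point as a block). Of markers of PC3 cells, all 5 (KRT8, KRT18, EPCAM, CD44 and VIM) were well above background on all 4 arrays, while KLK3, which this line is known to hardly express, was on none. The prostate epithelial genes KLK2 and TMPRSS2 had a probe well above background on every array. Of 5 fibroblast markers 3 and of 3 leukocyte markers 3 had a probe that was well above background on every array, among them COL1A1 and CD14. Some of these markers were higher with ALKBH3 shRNA at both times, EPCAM by 0.96 and 0.99, COL1A1 by 0.52 and 0.90, DCN by 0.56 and 0.74 and LUM by 1.99 and 1.98, while COL3A1 was lower by 0.08 and 0.78. The probe of LUM was not well above background on 1 array. EPCAM, DCN and LUM passed the adjusted p in limma with the time point as a block (0.0264, 0.0426 and 0.0209), as did 4.46% of all genes. None of the markers did without the block. The part of these markers in the values of the 42 genes was not tested.

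The first question was whether the RNA modification genes differ between ALKBH3 shRNA and control shRNA. With limma, and with the Benjamini-Hochberg adjustment made over every gene tested, 0 of the 42 adjusted p-values were below 0.05, as were 0 of all 14556 genes (0%). No member reached a 2-fold difference with an unadjusted p below 0.05, which 1.27% of all genes did, and no member had an unadjusted p below 0.05, against 8.33% of all genes. The methods' t-test on the same values likewise gave 0 members below 0.05, adjusted or not. The deaminase genes ADAR and ADARB1 had the largest differences, both higher with ALKBH3 shRNA by a factor of 1.41 and 1.40. TRDMT1 and WDR4 were at the low end, at 1.24-fold and 1.19-fold lower.

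Across the 42 genes the median log2 difference was 0.06, and it was -0.003 over all genes tested. The median of the 42 was 0.03 with each array centred on its median, and leaving out 1 array at a time gave between -0.0055 and 0.117. The lowest of these values came with the ALKBH3 shRNA array at 96 h left out. With an array left out the groups are unequal in time, so these values cannot show whether the sign rests on that array. With every array in place the median was 0.06 at 48 h and 0.05 at 96 h. Of the 42 genes, 27 lay above zero (64.3%, beside 49.4% of all genes) and 15 below. The difference had the same sign at both times for 25 genes on the high side and 7 on the low side. Of all 14556 genes tested, 5033 were higher at both times and 5184 lower. For 8 genes both ALKBH3 shRNA arrays were above both control arrays, which is 19.0% of the 42 beside 17.4% of all genes. For 2 genes both were below, 4.76% beside 19.1% of all genes. With each array centred on its median these counts were 3 and 4, and with the normalized values of the authors 4 and 1, so the split between higher and lower genes depends on the scaling. The 95% interval of the difference lay within a 2-fold change in either direction for 39 of the 42 genes, and the median over the genes of the distance from the mean to either end was 0.35.

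**Figure D1:**
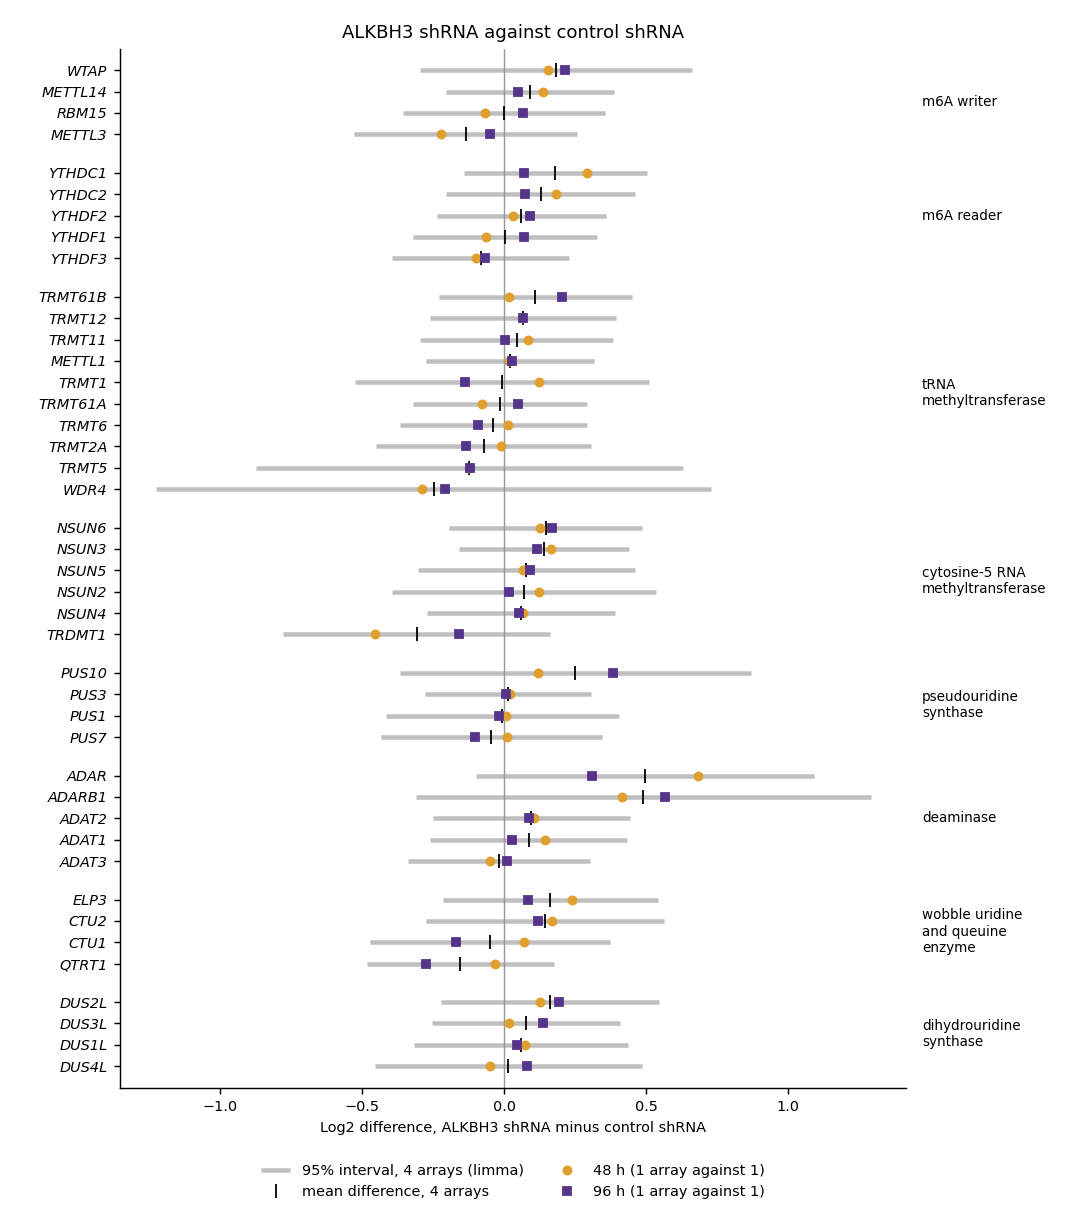
Log2 difference between ALKBH3 shRNA and control shRNA (x axis) for each of the 42 genes (y axis), grouped by role. Circles and squares are the single differences at 48 h and 96 h, black ticks their mean and grey bars its 95% interval from limma over 4 arrays. ADAR and ADARB1 reach the largest means, 0.50 and 0.49, and every interval in the plot includes zero.

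With the time point, which was also the slide, as a block, 649 of all genes (4.46%) passed the adjusted p and still no member did. The smallest adjusted p of a member in this limma fit was 0.0593, for ADARB1, followed by 0.0977 for ADAR. In it 4 members had an unadjusted p below 0.05, ADAR and ADARB1 on the high side and TRDMT1 and WDR4 on the low side, which is 9.52% of the 42 beside 25.1% of all genes. ADARB1 passed the adjusted p when the block was used together with probes well above background on all 4 arrays, as did 6.25% of all genes. ADAR and ADARB1, 4.76% of the 42, passed when it was used together with normexp background correction, beside 10.8% of all genes, or with the authors' values, beside 9.61%. In each of these fits the share of the 42 genes was below that of all genes. These combinations were chosen after the data had been seen.

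Among the writers, METTL3, the catalytic subunit of the m6A complex, had signals of 2.01 and 2.11 with control shRNA and 1.79 and 2.06 with ALKBH3 shRNA at 48 h and 96 h. It was lower by 0.22 at the first time and by 0.05 at the second, and the 2 groups overlapped. The METTL3 difference was 0.004 when the ALKBH3 shRNA array at 48 h was left out, which leaves the groups unequal in time. Its partner METTL14, which holds the RNA, had a log2 difference of 0.09. WTAP, which anchors the complex in nuclear speckles, had signals of -0.12 and 0.15 with control shRNA and 0.03 and 0.37 with ALKBH3 shRNA. The difference of WTAP was 0.15 at 48 h and 0.21 at 96 h (mean 0.18, limma adjusted p = 0.903), and its groups also overlapped. Dimmer WTAP probes had means of 0.08 and 0.05. RBM15, which guides the complex to its sites, was at 0.00.

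Of the readers, 4 of 5 lay above zero. For 3 of them (YTHDF2, YTHDC1 and YTHDC2) both ALKBH3 shRNA arrays were above both control arrays, beside 17.4% of all genes. A second YTHDF2 probe was higher by 0.18 at 48 h and lower by 0.21 at 96 h. The range of the 5 differences was narrow, from -0.08 to 0.18. YTHDC1, the nuclear reader, had signals of -3.74 and -3.65 with control shRNA and -3.45 and -3.58 with ALKBH3 shRNA. Its difference was 0.29 at 48 h and 0.07 at 96 h, and the limma adjusted p was 0.814. YTHDF3, a cytoplasmic reader, was lower at both times, at 1.92 and 1.81 with control shRNA and 1.82 and 1.74 with ALKBH3 shRNA, differences of -0.10 and -0.07 between groups that overlapped.

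The tRNA methyltransferases were split, with 4 of 10 above and 6 below zero and a median of -0.01. TRMT6 and TRMT61A form the enzyme that places 1-methyladenosine, one of the marks ALKBH3 removes, on cytosolic tRNA, and TRMT61B places it in mitochondria. TRMT6 had signals of 0.33 and 0.49 with control shRNA and 0.34 and 0.40 with ALKBH3 shRNA. TRMT61A had 0.09 and 0.06 with control shRNA and 0.01 and 0.11 with ALKBH3 shRNA. With these probes both subunits overlapped between the groups, and their log2 differences were -0.04 (95% interval -0.37 to 0.29) and -0.01 (-0.32 to 0.29). A dimmer second TRMT61A probe was higher by 0.15 at 48 h and 0.20 at 96 h, without overlap. The sign of TRMT61A thus depends on the probe. TRMT61B was higher at both times, by 0.02 and 0.20, with a mean of 0.11 and a limma adjusted p of 0.923. 

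WDR4 is the non-catalytic partner of METTL1 in the enzyme that makes 7-methylguanosine in tRNA. Its signals were -2.15 and -1.44 with control shRNA and -2.44 and -1.65 with ALKBH3 shRNA, so that at each time the ALKBH3 shRNA array was the lower one while the groups overlapped. The difference was -0.29 at 48 h and -0.21 at 96 h, with a standard error of 0.37 in the fit without the block and 0.08 with it (limma adjusted p = 0.949 and 0.154). Without each array in turn it ranged from -0.64 to 0.14, and it was above zero when either the ALKBH3 shRNA array at 48 h or the control array at 96 h was left out. With an array left out the shRNA groups are unequal in time, so these values hold part of the difference between the times. METTL1, the catalytic subunit, had a difference of 0.02. TRMT5, which methylates the base next to the anticodon, had signals of 1.01 and 1.56 with control shRNA and 0.88 and 1.44 with ALKBH3 shRNA, a difference of -0.12 at both times. It was above zero, at 0.15, when either the ALKBH3 shRNA array at 48 h or the control array at 96 h was left out. This too leaves the groups unequal in time. A second TRMT5 probe was higher by 0.24 at 48 h and lower by 0.09 at 96 h, so the sign of this gene depends on the probe.

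TRDMT1, once named DNMT2, methylates cytosine in a few tRNAs and had the lowest difference of the 42 genes. Its probe was spotted 10 times on each array, and its signals were -4.36 and -4.25 with control shRNA and -4.81 and -4.41 with ALKBH3 shRNA. Both ALKBH3 shRNA arrays were below both control arrays, by 0.46 at 48 h and 0.16 at 96 h (mean -0.31, limma adjusted p = 0.760, and 0.172 with the block). The spots of the probe had an SD of between 0.09 and 0.10 within an array. A dimmer second probe of TRDMT1 was lower at both times too, and it was not well above background on the 48 h array of ALKBH3 shRNA. The other 5 genes of this family, NSUN2 to NSUN6, serve cytosolic and mitochondrial tRNA and ribosomal RNA. With the brightest probe of each, all 5 lay above zero at both times, with means from 0.06 to 0.15. None had an unadjusted p below 0.05. A second NSUN5 probe was higher by 0.15 at 48 h and lower by 0.10 at 96 h. That of NSUN4 was higher by 0.22 and 0.25.

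PUS10, a pseudouridine synthase that also acts in microRNA processing, had signals of -5.15 and -4.87 with control shRNA and -5.03 and -4.49 with ALKBH3 shRNA. The groups overlapped, and the difference was 0.12 at 48 h and 0.38 at 96 h (mean 0.25, limma adjusted p = 0.899). Without each array in turn it ranged from -0.02 to 0.52, and it was below zero when the ALKBH3 shRNA array at 96 h was left out. Such fits compare groups unequal in time. A second PUS10 probe had the same mean, 0.25. The other 3 synthases, PUS1, PUS3 and PUS7, lay between -0.05 and 0.01.

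ADAR encodes the main editor of adenosine to inosine in double-stranded RNA, and its longer isoform is known to be interferon-inducible. Its signals were 3.84 and 3.66 with control shRNA and 4.52 and 3.97 with ALKBH3 shRNA. Both ALKBH3 shRNA arrays were above both control arrays, by 0.68 at 48 h and 0.31 at 96 h. The mean difference was 0.50 (standard error 0.22, limma adjusted p = 0.675), and with the block the standard error was 0.12 and the adjusted p 0.0977. The array held 1 probe for ADAR, and which of its isoforms the probe measures was not examined. Known interferon-stimulated genes moved beside it: of a list of 30, all 30 were higher with ALKBH3 shRNA in the mean over the times, and 29 at both times. Their median log2 difference was 1.69 at 48 h and 0.79 at 96 h. In limma 14 had an unadjusted p below 0.05, beside 4.7% of all genes on the high side. With the block 5 passed the adjusted p, beside 4.46% of all genes in either direction. The part of the interferon-stimulated genes in the value of ADAR was not tested.

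ADARB1, the second active editor of this family, which recodes glutamate receptor transcripts in neurons, had signals of 0.52 and 1.03 with control shRNA and 0.93 and 1.60 with ALKBH3 shRNA. At each time the ALKBH3 shRNA array was the higher one, by 0.41 and 0.57, but the 48 h array of ALKBH3 shRNA was below the 96 h control array. The mean difference was 0.49, with a standard error of 0.30 without the block and 0.08 with it (limma adjusted p = 0.785 and 0.0593). A second ADARB1 probe was higher by 0.34 at 48 h and 0.24 at 96 h. Without each array in turn the difference ranged from 0.16 to 0.82 for ADARB1 and from 0.22 to 0.77 for ADAR, between groups then unequal in time. The tRNA deaminases ADAT1, ADAT2 and ADAT3, of which the last 2 form the enzyme that makes inosine at the wobble position, had differences of 0.09, 0.10 and -0.02. A dimmer second ADAT2 probe was lower by 0.29 at 48 h and higher by 0.12 at 96 h.

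**Figure D2:**
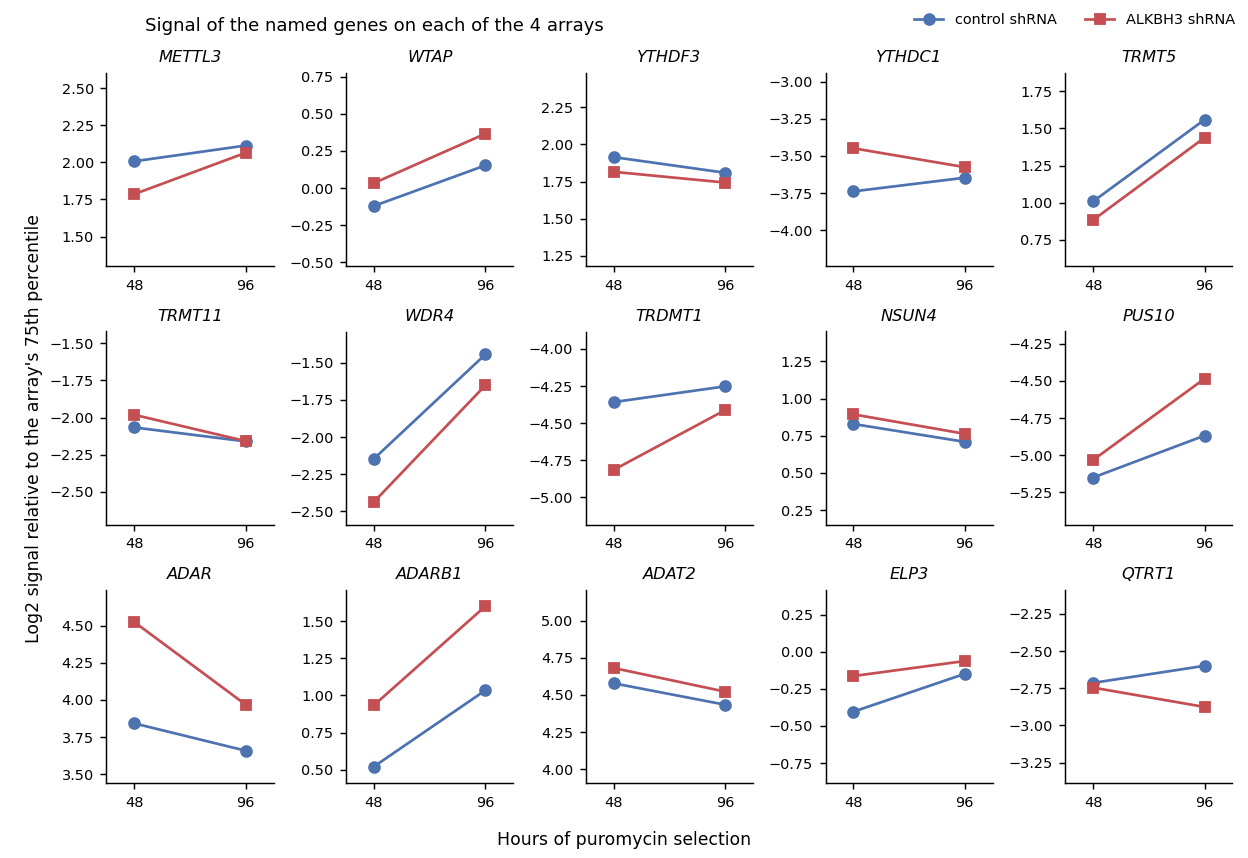
Log2 signal relative to the 75th percentile of the array (y axis, every panel spanning 1.3 units) against hours of puromycin selection (x axis) for 15 genes. Blue circles are control shRNA and red squares ALKBH3 shRNA, each point is 1 array and there are no error bars. The red points of ADAR and ADARB1 lie above the blue point of the same time by between 0.31 and 0.68, and WDR4 and TRMT5 are higher at 96 h with both shRNAs.

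The enzymes of the wobble uridine and of queuine were split, 2 above and 2 below zero. ELP3, the catalytic subunit of Elongator, had signals of -0.40 and -0.15 with control shRNA and -0.16 and -0.06 with ALKBH3 shRNA, differences of 0.24 and 0.09 between groups that overlapped. QTRT1, the catalytic subunit that inserts queuine into tRNA, had signals of -2.71 and -2.60 with control shRNA and -2.75 and -2.88 with ALKBH3 shRNA. Both ALKBH3 shRNA arrays of QTRT1 were below both control arrays, by 0.03 and 0.28 (mean -0.15, limma adjusted p = 0.865). CTU1 and CTU2, which add sulfur to the wobble uridine, were at -0.05 and 0.14. All 4 dihydrouridine synthases lay above zero, from 0.01 for DUS4L to 0.16 for DUS2L, with an unadjusted p above 0.05 in each.

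To show the regulatory DNA of the genes on which both comparisons turn, the 250 bases before the start sites of ADAR, ADARB1, WDR4 and TRMT5 are given 5′ to 3′ from RefSeq (GRCh38.p14). Of the 3 starts listed for ADAR, the first and the distant one are shown, since the window of the other overlaps the first. Of the starts of ADARB1 the first is shown. Capitals mark matches on either strand to the letters CACGTG (the E-box) and CCGGAA (the core bound by ETS factors), and the core of the interferon-stimulated response element, GAAANNGAAA, was searched too. The motifs were chosen after the values had been seen.
ADAR first start, chr1:154627998-154628247, minus strand: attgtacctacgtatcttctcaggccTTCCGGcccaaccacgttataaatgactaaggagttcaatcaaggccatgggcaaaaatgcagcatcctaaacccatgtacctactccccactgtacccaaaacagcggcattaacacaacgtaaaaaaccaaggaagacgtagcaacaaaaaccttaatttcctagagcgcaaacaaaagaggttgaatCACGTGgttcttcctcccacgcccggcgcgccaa
ADAR second start, chr1:154608798-154609047, minus strand: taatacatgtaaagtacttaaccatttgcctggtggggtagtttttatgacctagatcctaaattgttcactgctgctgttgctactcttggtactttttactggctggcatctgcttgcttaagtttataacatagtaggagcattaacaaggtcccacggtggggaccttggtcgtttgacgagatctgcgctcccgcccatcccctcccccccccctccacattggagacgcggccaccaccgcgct
ADARB1 first start, chr21:45074328-45074577, plus strand: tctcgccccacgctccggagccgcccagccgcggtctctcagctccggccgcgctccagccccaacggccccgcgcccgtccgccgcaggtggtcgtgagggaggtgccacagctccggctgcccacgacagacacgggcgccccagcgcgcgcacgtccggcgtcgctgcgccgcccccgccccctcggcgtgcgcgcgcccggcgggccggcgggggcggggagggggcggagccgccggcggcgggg
WDR4, chr21:42879540-42879789, minus strand: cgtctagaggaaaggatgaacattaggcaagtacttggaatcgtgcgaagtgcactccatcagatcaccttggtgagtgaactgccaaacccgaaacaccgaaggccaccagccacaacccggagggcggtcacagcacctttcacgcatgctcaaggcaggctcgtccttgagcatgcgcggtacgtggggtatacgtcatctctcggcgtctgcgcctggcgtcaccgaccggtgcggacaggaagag
TRMT5, chr14:60981691-60981940, minus strand: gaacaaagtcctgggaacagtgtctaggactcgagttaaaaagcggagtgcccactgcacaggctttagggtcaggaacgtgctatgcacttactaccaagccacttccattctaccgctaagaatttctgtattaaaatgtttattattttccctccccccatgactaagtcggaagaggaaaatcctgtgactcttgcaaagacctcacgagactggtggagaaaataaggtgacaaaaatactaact

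The window before the first ADAR start held 1 E-box and 1 ETS core, and the other 4 windows held none of the 3 motifs, the response element included. Promoters were given for 35 of the 42 genes, and not for TRMT12, TRMT2A, ELP3, PUS1, NSUN2, METTL1 and YTHDF3. The ETS core stood in a promoter of 16 of the 35 genes (45.7%), of 27.7% of the tested genes with a promoter in the table and of 14.5% of all windows of this length. The E-box stood in 4 of the 35 (11.4%), beside 1247 of the 11605 tested genes and 6.34% of all windows, and the response element core in 2 (NSUN4 and TRMT61B), beside 3.53% and 3.02%. These are matches of letters and not sites shown to be bound.

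The second comparison was between 96 h and 48 h of selection, with 2 arrays at each time. Most of the 42 genes were higher at 96 h, led by WDR4, ADARB1 and TRMT5 with log2 differences of 0.74, 0.59 and 0.55, while ADAR was the lowest at -0.37. In limma without a block, 0 of the 42 passed the adjusted p, as did 0 of all 14559 genes tested for this comparison (0%), and the methods' t-test passed 0 of the 42 too. At an unadjusted p below 0.05, 5 members were higher (WDR4, TRMT5, DUS4L, NSUN2 and TRMT1) and none lower, beside 9.89% of all genes on the high side. With the shRNA as a block, WDR4, TRMT5 and ADARB1 rose and no member fell at the adjusted p, beside 6.15% of all genes that rose and 7.25% that fell. Each time point had a slide of its own, so time and slide cannot be told apart.

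The median log2 difference of the 42 genes was 0.14, and that of all genes was -0.01. With control shRNA alone it was 0.12, and with ALKBH3 shRNA alone 0.13. Of the 42 genes, 31 lay above zero (73.8%, beside 48.7% of all genes). For 25 of them both 96 h arrays were above both 48 h arrays, 59.5% of the 42 beside 26.9% of all genes. For 6 genes both were below, 14.3% beside 26.4% of all genes. Under the other scalings the first of these counts lay between 24 and 31. A list of 20 proliferation genes was higher at 96 h in all 20, with a median of 0.70. All 20 passed the adjusted p with the block, beside 6.15% of all genes that rose. By contrast, all 30 interferon-stimulated genes were lower in the mean over the shRNAs, with a median of -0.88. The part of either in the values of the 42 genes was not tested.

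**Figure D3:**
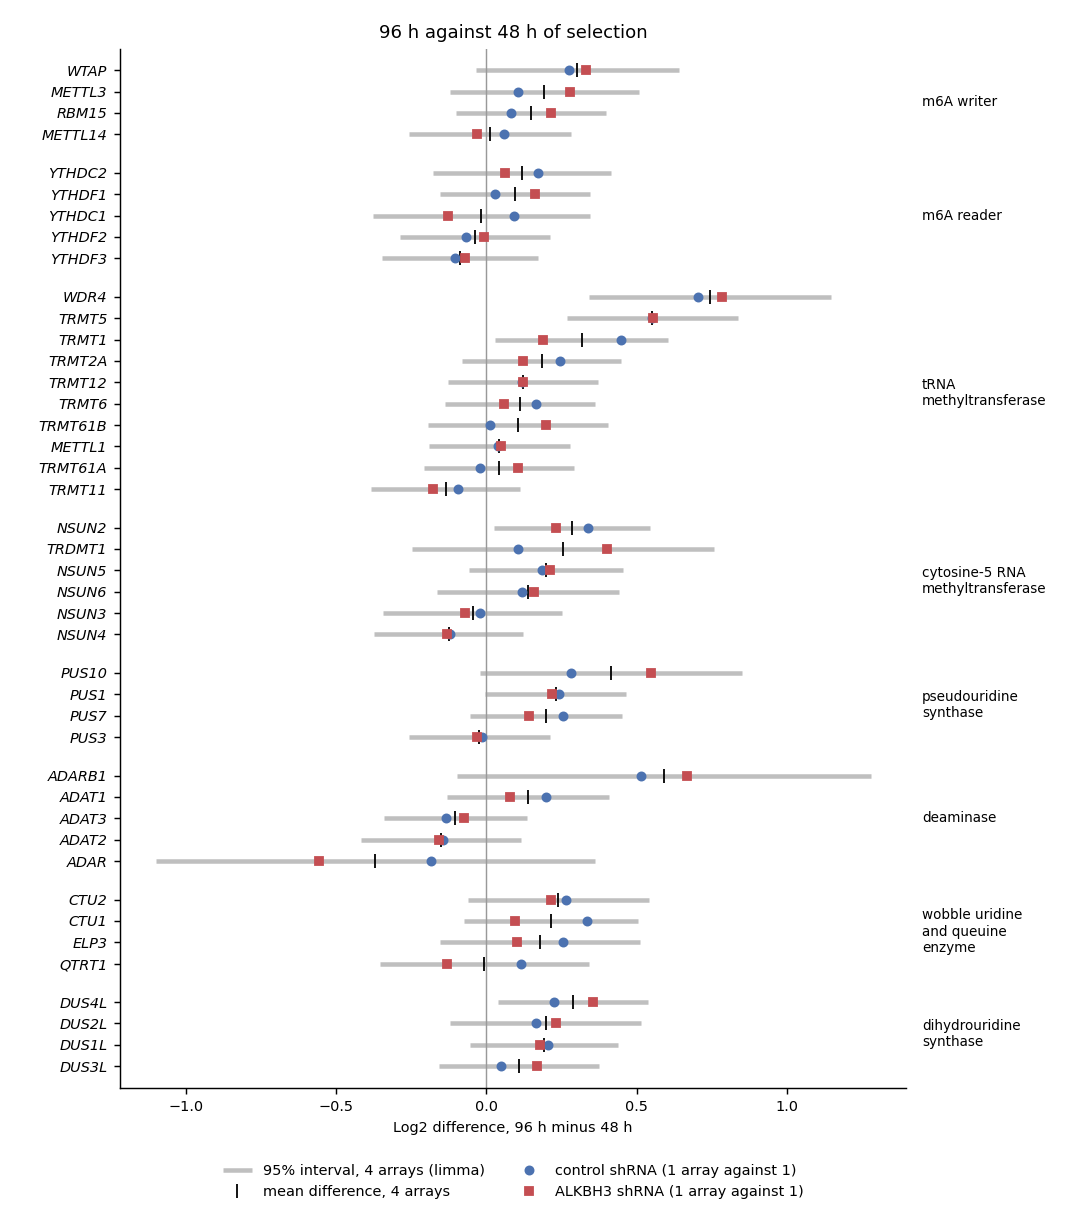
Log2 difference between 96 h and 48 h of selection (x axis) for each of the 42 genes (y axis), grouped by role. Circles are the difference with control shRNA, squares that with ALKBH3 shRNA, black ticks the mean and grey bars its 95% interval from limma over 4 arrays. The means of WDR4, TRMT5, TRMT1, NSUN2 and DUS4L have intervals that lie above zero, and ADAR has the lowest mean, -0.37.

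WDR4 rose by 0.70 with control shRNA and by 0.78 with ALKBH3 shRNA, and both 96 h arrays were above both 48 h arrays. Its mean difference was 0.74 (95% interval 0.34 to 1.15, limma adjusted p = 0.136, and 0.0222 with the block). The difference of its partner METTL1 was 0.04. TRMT5 rose by 0.55 with either shRNA (limma adjusted p = 0.128, and 0.0274 with the block), but its second probe was higher by 0.21 with control shRNA and lower by 0.13 with ALKBH3 shRNA. Of the tRNA methyltransferases 9 of 10 lay above zero, with a median of 0.12, and the exception was TRMT11, at -0.14. TRMT11, which methylates a guanosine near the D arm, had signals of -2.07 and -1.98 at 48 h and -2.16 and -2.16 at 96 h with control and ALKBH3 shRNA. The sign of its time difference turned with normexp background correction and with the authors' values.

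ADARB1 rose by 0.51 with control shRNA and by 0.67 with ALKBH3 shRNA (mean 0.59, limma adjusted p = 0.302, and 0.0288 with the block), and its second probe by 0.47 and 0.36. ADAR went the other way, lower by 0.18 with control shRNA and by 0.56 with ALKBH3 shRNA (mean -0.37, limma adjusted p = 0.501, and 0.107 with the block). Its groups overlapped, since the 96 h array of ALKBH3 shRNA was still above the 48 h control array. Without each array in turn the time difference of ADAR ranged from -0.71 to -0.03, the latter when the ALKBH3 shRNA array at 48 h was left out. These fits compare times that are unequal in shRNA. Whether the change over time differs between the shRNAs could not be tested with 1 array in each combination. ADAT2, the catalytic subunit of the wobble deaminase, had signals of 4.58 and 4.68 at 48 h and 4.43 and 4.52 at 96 h with control and ALKBH3 shRNA, and ADAT3 was lower at 96 h as well, by 0.13 and 0.07. A dimmer second ADAT2 probe was higher at 96 h, by 0.01 with control shRNA and 0.42 with ALKBH3 shRNA. The sign of the ADAT2 time difference thus depends on the probe.

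All 4 genes of the m6A writer complex lay above zero, from 0.01 for METTL14 to 0.30 for WTAP. For 3 of them both 96 h arrays were above both 48 h arrays, which 26.9% of all genes were. Dimmer WTAP probes had mean time differences of 0.45 and -0.02. The readers were divided, with 2 of 5 above zero and values from -0.09 to 0.12. NSUN2 was higher by 0.34 and 0.23, and NSUN4, which methylates mitochondrial ribosomal RNA, was lower by 0.12 and 0.13, at 0.83 and 0.89 at 48 h and 0.71 and 0.76 at 96 h. A second NSUN4 probe was higher by 0.07 and 0.10. All 4 dihydrouridine synthases were higher on both 96 h arrays than on both 48 h arrays, with means from 0.11 to 0.29, and so were 3 of the 4 pseudouridine synthases and 3 of the 4 wobble uridine and queuine enzymes.

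**Figure D4:**
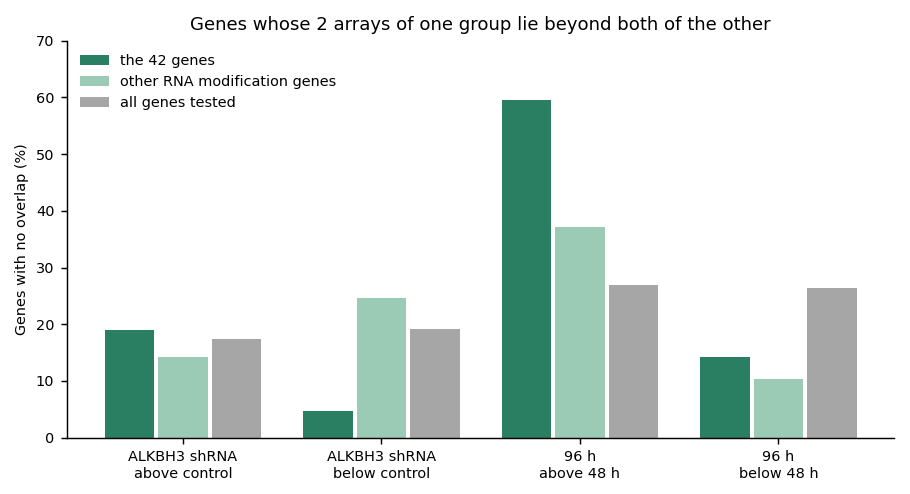
Percentage of genes (y axis, from 0) for which both arrays of one group lie above, or below, both arrays of the other, for the 42 genes, the list of other RNA modification genes and all genes tested. The bars carry no error. The share of the 42 genes above at 96 h is 59.5%, beside 37.2% of the other RNA modification genes and 26.9% of all genes.

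Other genes of RNA modification, a list of 83 of which 77 were tested between the shRNAs, gave a median log2 difference of -0.01 between ALKBH3 and control shRNA, with 36 above and 41 below zero. None passed the adjusted p with or without the block, and 3 on the high side and 2 on the low side had an unadjusted p below 0.05, beside 4.7% and 3.63% of all genes. Both ALKBH3 shRNA arrays were above both control arrays for 11 of the 77 (14.3%, beside 17.4% of all genes). They were below for 19 (24.7%, beside 19.1%). The enzymes that place 3-methylcytosine, the other mark that ALKBH3 removes, had values of 0.10 for METTL2A, -0.05 for METTL2B, 0.23 for METTL6 and 0.21 for METTL8. The m6A erasers FTO and ALKBH5 were at -0.12 and -0.13, lower at both times. Between 96 h and 48 h, 55 of the 78 tested genes of this list lay above zero (70.5%, beside 48.7% of all genes), with a median of 0.06. With the shRNA as a block MRM1 rose by 0.58 and NSUN7 fell by 0.62 (limma adjusted p = 0.0281 and 0.0349). In that fit 6.15% of all genes rose and 7.25% fell at the adjusted p. ADARB2, a relative of ADAR without known editing activity, was tested only because it was well above background on both 96 h arrays. It was on neither 48 h array, and it is not counted as a rise.

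Of the 42 genes 28 were measured by 1 probe. Of the 14 with several, all probes had the same sign between the shRNAs for 10 and between the times for 11. The exceptions between the shRNAs were ADAT2, TRMT5, TRMT61A and YTHDF2, and those between the times ADAT2, NSUN4 and WTAP. RNA of whole cultures was measured, so fewer cells that express a gene and less RNA per cell cannot be told apart.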

How the data were processed

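The authors deposited the intensity of each spot from Agilent Feature Extraction (version 10.7.3.1 per the file headers), background-subtracted, detrended and floored within that array and not normalized between arrays. The authors also deposited log2 intensities normalized between the 4 arrays, used here as an alternative. Intensities were converted to log2 and centred on the 75th percentile of the array, which lay between 2150 and 2394. Between 180 and 379 poor spots an array were removed, 0 spots were saturated, and the mean over the spots of a probe was taken. A probe was well above background where at least 0.5 of its spots were marked so, and was tested where it was on both arrays of 1 group. Of several tested probes of a gene the brightest on average was used. RefSeq (GRCh38.p14) named 24910 of 34127 probes. Groups were compared with limma 3.58.1 in R 4.3.3, 2 arrays against 2, and the steps were tested on simulated data. The number of arrays limits the precision.

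Arrays of one time shared a slide and a time label, which pairs them. Over genes, the time difference with control shRNA and that with ALKBH3 shRNA had a correlation of 0.703. The other factor was therefore used as a block in an alternative fit. The 42 genes, the gene lists and the motifs were chosen with earlier results of these data known. Values are given on every array for members called in either comparison with or without the block, for the 6 largest rises and 6 largest falls with the same sign at both times, and for the 4 largest time differences in each direction, and TRMT6 and TRMT61A were added for their role. The alternatives were normexp background correction (offset 50), quantile normalization, other centring, the authors' values, other filters and probe choices, the methods' t-test and leaving out each array. With an array left out the groups are unequal in the other factor, and part of its difference enters the value.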

Additional observations from a re-analysis of the deposited data

How the results depend on the processing

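With 2 arrays a group, only differences that are large against the spread between times or slides can pass. The count of members that passed the adjusted p between the shRNAs was 0 under every alternative without the block and with the block alone. It was 2 (4.76% of the 42) when the time point as a block was used together with normexp (10.8% of all genes) or with the authors' values (9.61%) and 1 (2.38%) with the block and probes well above background on all 4 arrays (6.25%), combinations chosen after the data had been seen. Between the times it was 0 without the block and 3 with it (7.14% of the 42, beside 13.4% of all genes). The block gave 3 with quantile normalization, median centring or the other percentile (between 10.6% and 14.7% of all genes), 4 with probes as features (10.8% of all probes) or the stricter filter (18.6% of all genes), 8 or 19.0% with the authors' values (24.9% of all genes) and 14 or 33.3% with normexp (30.3% of all genes). The count of members past the 2-fold cutoff was 0 under every alternative run.

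The members with both ALKBH3 shRNA arrays above both control arrays numbered 3 with median centring and 4 with the authors' values, and those below numbered 4 with median centring, 1 with normexp and 1 with the authors' values. Without each array in turn the first ranged from 12 to 26 and the second from 3 to 11, since 1 array against 2 overlaps less often by construction. The median log2 difference of the members was 0.041 with normexp, 0.077 with quantile normalization, 0.030 with median centring, 0.080 with the other percentile, 0.049 with the authors' values and 0.049 with the mean over probes. It ranged from -0.0055 without the 96 h array of ALKBH3 shRNA to 0.117 without the 96 h control array, between groups then unequal in time. Members with both 96 h arrays below both 48 h arrays numbered 3 with median centring, and from 6 to 11 without each array in turn. The ALKBH3 log2 difference was -1.63 with the block, where it passed the adjusted p, and between -1.70 and -1.55 without each array in turn. For the 15 members with values on every array, 535 of 600 values kept their direction and their side of the threshold, 32 passed it only under the alternative and 33 changed sign without a call. The cause of these differences was not tested.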

Other observations

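Among the 77 other RNA modification genes, chosen after their values were seen, HENMT1, which methylates the ends of small RNAs, had the lowest log2 difference between ALKBH3 and control shRNA, -0.45 (-0.55 at 48 h and -0.34 at 96 h). Its signals were -2.08 and -2.01 with control shRNA and -2.64 and -2.35 with ALKBH3 shRNA, with no overlap. The highest was that of TRMT1L, a relative of TRMT1, at 0.45 (0.26 and 0.65). DIMT1, which dimethylates adenosines of ribosomal RNA, was higher by 0.35 and 0.46. None of the 3 passed the adjusted p in limma with the time point as a block, where the values were 0.0778 for HENMT1, 0.120 for TRMT1L and 0.0752 for DIMT1.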
